A study of Mus musculus with 2 samples.

Results

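The cells described here carried Krt75, a type II keratin of the companion layer and the medulla of the hair follicle, and were chosen from mouse dorsal skin by their own keratin counts. A cell barcode was kept with 200 to 8000 detected genes and at most 10% of its counts from mitochondrial genes. It was taken as Krt75-positive with at least 3 Krt75 unique molecular identifiers (UMIs, which count captured transcripts) and at least 10 per 10000 UMIs. The summed inner root sheath keratins Krt71, Krt25, Krt27 and Krt28 had to stay below 150 per 10000, and the summed hair shaft keratins Krt31, Krt33a, Krt33b, Krt34, Krt81 and Krt86 below 50 per 10000. This left 237 of 62289 kept barcodes, 168 of 42244 from the control library and 69 of 20045 from the testosterone library.

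All mice were C3H/HeN males, 7 weeks old at the start and 9 weeks old when the skin was taken. The dorsal skin of the mice was shaved. Control mice (Con) then received vehicle, while testosterone propionate (TP) was injected subcutaneously at 0.5 mg/day to give the androgenetic alopecia (AGA) model. Skin of 15 mice was pooled per group, digested with collagenase and loaded as whole skin on a droplet assay that reads the 3′ end of transcripts. Each group was therefore 1 library of pooled animals, so no difference between groups could be tested, and every interval here is a 95% interval for counting error only. The study's TP + Ab mice are not analysed here.

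The companion layer is a sheet of keratinocytes between the inner and the outer root sheath, known for Krt75 together with Krt6 keratins and Krt17. The medulla is the central column of the hair shaft. Its cells are known for Krt75, for the transcription factor Foxq1 and for trichohyalin (Tchh), a protein that peptidylarginine deiminases and transglutaminases modify and crosslink as the cells harden.

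Krt75 (ENSMUSG00000022986, chr15:101563343-101573904 in GRCm38.p6) was read at a median of 16.9 per 10000 UMIs in the Con cells, and the highest value was 115. In the TP cells the median was 15.8 and the highest value 62.1. The ranges overlapped, and the values follow from the rule. Close to its edge, 29 Con and 11 TP cells lay between 10 and 12 per 10000, and 38 and 24 barcodes lay just outside, between 8 and 10. The limit on inner root sheath keratins removed 1 Con barcode and no TP barcode, and the limit on hair shaft keratins removed none.

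The Con cells held a median of 3635.5 UMIs and summed to 774854 UMIs. The TP cells were deeper, with a median of 7038 and a sum of 711362. Over all kept barcodes the medians were 2162 and 5166 UMIs. The libraries shared 303 barcode sequences, 4 of which belonged to a Krt75-positive cell, and no Krt75-positive cell shared its sequence with a Krt75-positive cell of the other library.

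Krt6a (ENSMUSG00000058354), a keratin of the companion layer and of stressed epidermis and the second marker given for these cells, went against the label. It reached 10 per 10000 UMIs in 0 of 168 Con cells, which allows a share of up to 1.79%, and in 0 of 69 TP cells, which allows up to 4.35%. The Con cells held 1 Krt6a UMI in all and the TP cells 14, and Krt6b had none. Elsewhere in the skin 10 Con and 133 TP barcodes reached the Krt6a level, of which 1 and 6 carried any Krt75 UMI. Of the companion layer list, 4 of 9 markers exceeded all other kept barcodes in both libraries, namely Krt75 itself, Krt17, Gjb2 and Gjb6. Calb2 and Krt6b were at 0. Of the medulla list 7 of 10 did, and these again include Krt75, whose excess follows from the rule.

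Several genes of the medulla list were high, and those below are among the 7 of 10 that exceeded the other barcodes in both libraries. In the TP cells 1 of the 10 had no UMI. Foxq1, whose loss gives the satin mouse its altered hair, was measured as counts per 1000000 UMIs (CPM) and stood at 865 CPM in Con and 1071 CPM in TP, against 24.1 and 20.4 CPM in all other kept barcodes. Tchh stood at 12719.8 CPM in Con and 9399 CPM in TP, against 1145 and 409 CPM. The deiminase Padi3 was read at 324 and 373 CPM against 33.2 and 20.8 CPM, and the homeobox factor Hoxc13 at 263 and 499 CPM against 77.8 and 43.6 CPM. Each was higher than in the other barcodes of its library. The rule held only some of the Foxq1-carrying cells: 274 Con and 276 TP barcodes had 3 or more Foxq1 UMIs, and 74 (27.0%) and 49 (17.8%) of them were Krt75-positive cells as defined here.

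Free RNA in the droplets was gauged in immune barcodes, which are not keratinocytes, and in dermal barcodes, chosen by their collagen counts. Barcodes were first thinned to 1000 UMIs, and those with fewer were left out. The cells were chosen for Krt75, so its share in them follows from the rule. Krt75 kept a UMI in 81.2% of 165 Con and 82.4% of 68 TP cells, against 1.49% of 201 and 0.215% of 465 immune barcodes, whose median depths were 2010 and 4476 UMIs. Tchh kept a UMI in 71.5% and 61.8% of the cells but also in 42.3% and 11.4% of the immune barcodes and in 32.3% and 8.09% of the dermal barcodes. Tchh was thus read in many barcodes of other cell types, at a larger share in Con, and Krt75 in few.

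Among named genes with at least 100 UMIs in the Krt75-positive cells of each library, the 15 with the largest excess over all other kept barcodes were, in order, Krt75, Soat1, B3gnt5, Tchhl1, Sct, Uox, Sptssb, Tgm6, Alox8, Vat1l, Nckap5, Gpnmb, Csta1, Pla2g4e and B4galt6. Genes with fewer UMIs, such as Tm4sf4 at 40.0 and 125 CPM against 0.303 and 0.308 CPM, could exceed them and were not ranked. The 15 were picked for their excess, so their values describe the cells and test nothing. Several act on lipids: Soat1 makes cholesterol esters, Sptssb is a small subunit of the enzyme that starts sphingolipid synthesis, Alox8 is a lipoxygenase and Pla2g4e a phospholipase. Soat1, whose loss disturbs the interior of mouse hair, stood at 2449 CPM in Con and 2558 CPM in TP, against 35.4 and 21.4 CPM in the other barcodes. Gpnmb, a membrane glycoprotein, stood at 4367 and 5218 CPM against 106 and 60.6 CPM. Sct, which encodes the hormone secretin, stood at 508 and 634 CPM against 8.14 and 5.24 CPM. Tgm6 is a transglutaminase and was read at 559 and 648 CPM against 12.2 and 6.29 CPM.

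Foxq1, Soat1 and Sct were low in the neighbouring follicle compartments, while others of these genes were not. In the 1010 Con and 165 TP barcodes at or above the inner root sheath limit, Foxq1 was at 6.15 and 5.56 CPM, Soat1 at 7.38 and 0 CPM and Sct at 8.61 and 4.64 CPM. Tchh was high there too, at 5517 and 9312 CPM. In the 57 Con and 32 TP barcodes at or above the hair shaft limit, Foxq1 was at 3.24 and 0 CPM, Soat1 at 3.24 and 0 CPM, Sct at 3.24 and 0 CPM and Tchh at 599.6 and 83.4 CPM. Alox8 was at 201 and 250.1 CPM in that gate against 269.7 and 302 CPM in the Krt75-positive cells, and Gpnmb reached 314 and 63.3 CPM against 4367 and 5218 CPM. The alcohol dehydrogenase gene Adh6b was at 1569 and 1044 CPM there against 1172 and 1659 CPM, and the deiminase Padi4 at 428 and 303 CPM against 236 and 211 CPM, both named after their values were seen. A level of 0 in these small gates means that no UMI was read.

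**Figure D1:**
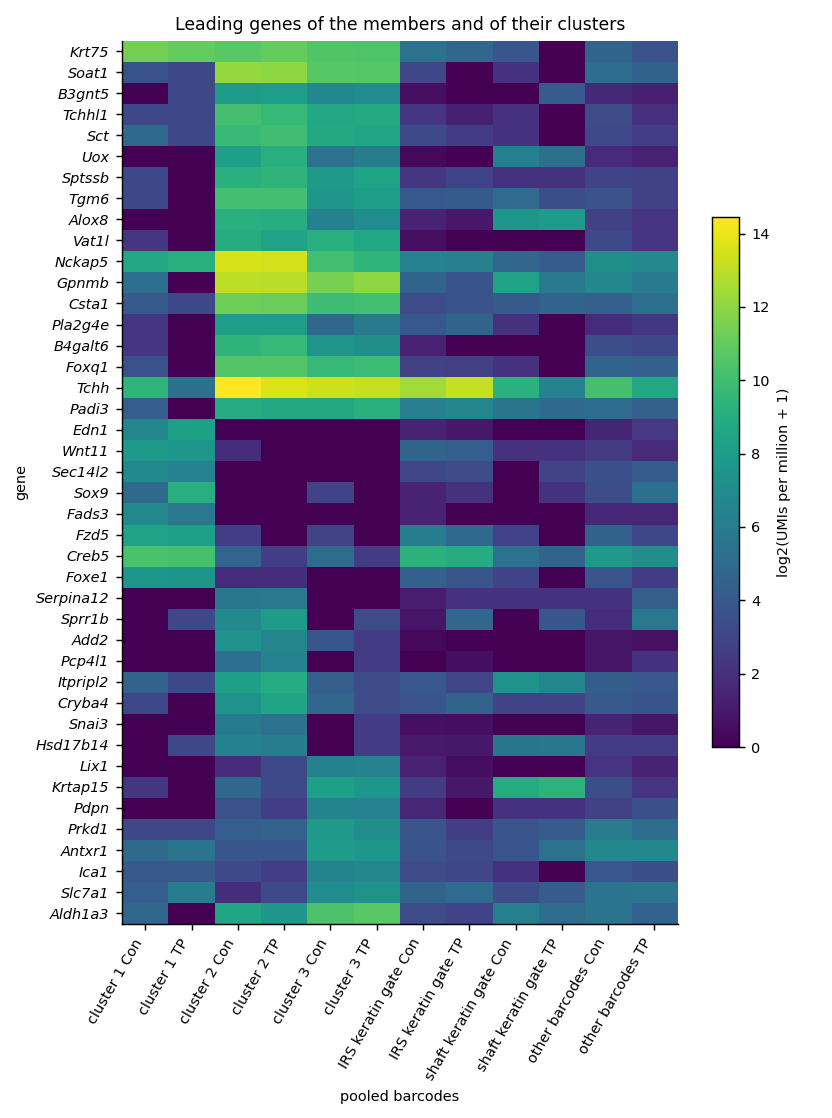
Level of each gene as log2(CPM + 1) in pooled barcodes, with a Con and a TP column for clusters 1, 2 and 3 of the Krt75-positive cells, the inner root sheath (IRS) keratin gate, the hair shaft keratin gate and all other kept barcodes. The leading genes are bright in clusters 2 and 3 and, apart from Krt75, mostly dim in cluster 1, and Tchh is also bright in the inner root sheath columns.

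The cells did not form 1 population. Clustering them on their own gave 3 clusters. The clustering used 2000 variable genes of these same cells, so differences between clusters are descriptions. The genes named for a cluster were chosen after its values were seen. Cluster 1 held 72 Con and 13 TP cells, cluster 2 held 57 and 26, and cluster 3 held 39 and 30. Their median UMIs were 2526.5 and 6678 in cluster 1, 5078 and 10578.5 in cluster 2, and 3244 and 5399.5 in cluster 3. A doublet caller was set to mark 7.5% of the kept barcodes of each library. It marked 9 of 168 Con cells (5.36%), all in cluster 1, and no TP cell.

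Clusters 2 and 3 carried the medulla genes. Foxq1 had a UMI in 85 of 96 Con and 54 of 56 TP cells of these clusters, but in 3 of 72 Con and 0 of 13 TP cells of cluster 1. The last count allows a share of up to 23.1%. Soat1 followed the same split, with 83 and 53 cells in clusters 2 and 3 and 3 and 1 in cluster 1. Of the 10 medulla markers, 7 in cluster 2, 6 in cluster 3 and 2 in cluster 1 exceeded all other barcodes in both libraries, and each of these counts includes Krt75, by which the cells were chosen. The 10 genes with the largest excess in cluster 2 held 1 gene of the inner root sheath list, Tchhl1, and none of the medulla list, so the clusters are referred to by number.

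Cluster 2 held the most Nckap5 and Tchh. Nckap5 was at 12253 CPM in Con and 11515 CPM in TP there and at 1062 and 699 CPM in cluster 3. Tchh was at 22278 CPM in Con and 12798 CPM in TP in cluster 2 and at 10449.6 and 9294 CPM in cluster 3. Involucrin (Ivl), a precursor of the cornified envelope, was at 1099 and 1401 CPM in cluster 2 and 154 and 257 CPM in cluster 3. Other genes that led cluster 2 over the remaining cells were Serpina12, Sprr1b, Add2 and Pcp4l1.

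Cluster 3 was led by Lix1, Krtap15, Pdpn and Prkd1 and was rich in Kitl, the ligand of the KIT receptor of melanocytes. Kitl was at 3307 CPM in Con and 4969 CPM in TP there and at 1335 and 651 CPM in cluster 2. Lef1, a transcription factor of Wnt signalling, was at 982 and 1080.2 CPM in cluster 3 and 195 and 137 CPM in cluster 2. Aldh1a3, which makes retinoic acid, was at 1356 and 1719 CPM in cluster 3 and 376 and 195 CPM in cluster 2. Per cell, Kitl in cluster 3 had a median of 29.7 per 10000 UMIs in Con, from 0 to 97.4, and of 47.9 in TP, from 3.15 to 101, so the libraries overlapped.

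Cluster 1 had a different set, led by Edn1 (endothelin), Wnt11, Sec14l2, Sox9, Fads3, the Wnt receptor Fzd5, Creb5 and Foxe1. Sox9 was at 30.6 and 555 CPM in cluster 1, and 69 of its 72 TP UMIs there lay in 5 cells. Krt75 was at 2796 CPM in Con and 2050.0 CPM in TP there. The Wnt ligand Wnt11 was at 226 CPM in Con and 193 CPM in TP, against 2.75 and 0 CPM in cluster 2 and 0 and 0 CPM in cluster 3. Creb5 was at 1275 and 1195 CPM against 24.7 and 5.49 and, in cluster 3, 33.4 and 4.60 CPM. Edn1 had a UMI in 15 of 72 Con and 5 of 13 TP cells of cluster 1, and in 0 of 96 and 0 of 56 cells of clusters 2 and 3, which allows shares of up to 3.12% and 5.36%. The gap junction gene Gjb2 was at 1003 and 555 CPM in cluster 1 and at 390.0 and 520.2 CPM in the inner root sheath gate. Of the 9 companion layer markers, 4 exceeded all other barcodes in both libraries in cluster 1, and 3 were at 0 in its Con cells. No companion layer name was given to it.

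**Figure D2:**
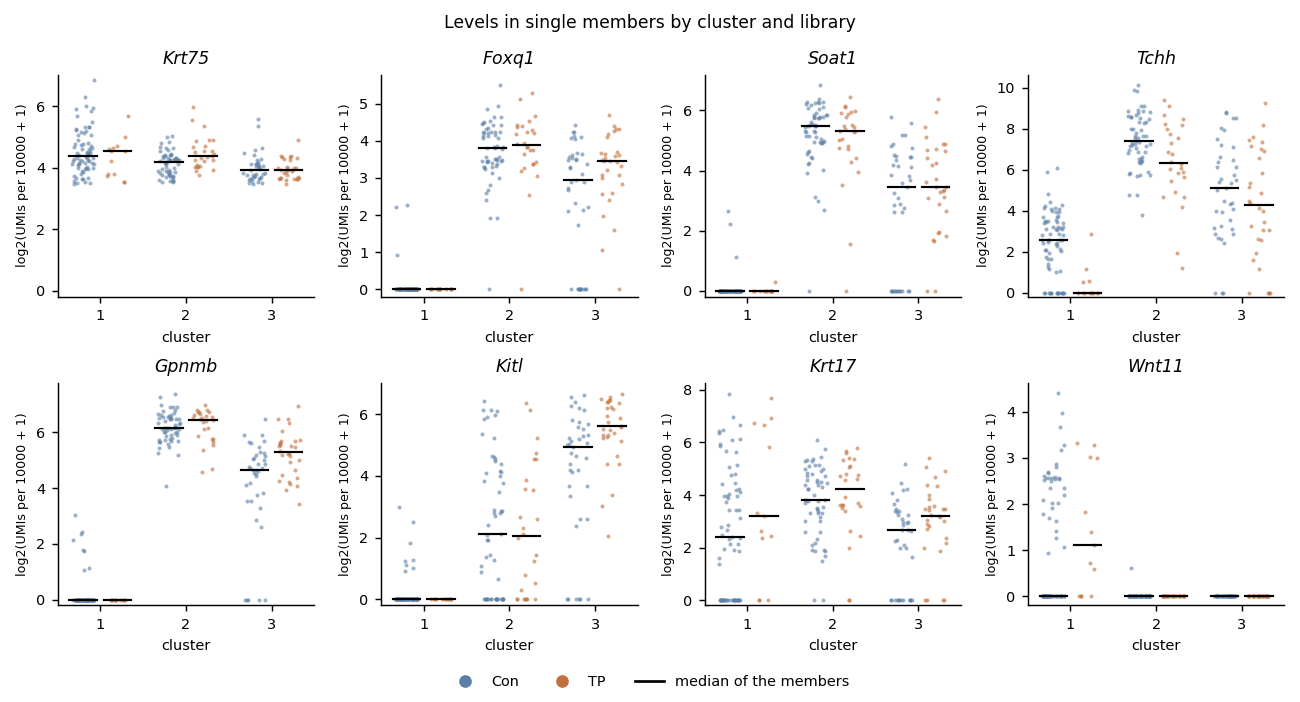
Each point is 1 Krt75-positive cell, placed by cluster on the x axis and by log2(UMIs per 10000 + 1) of the named gene on the y axis, with Con in blue, TP in orange and a black bar at the median. Foxq1 and Soat1 lie at 0 in nearly all cells of cluster 1, Kitl is highest in cluster 3 and Wnt11 is seen mainly in cluster 1.

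How the cells differed between TP and Con was asked first of their number. Krt75-positive cells made up 0.398% of kept barcodes in Con (Clopper-Pearson interval 0.340 to 0.462) and 0.344% in TP (0.268 to 0.435). The ratio of TP over Con was 0.866, with an interval of 0.644 to 1.15 that includes 1. TP barcodes were deeper. Thinning to 2000 UMIs before applying the rule gave 118 Con and 55 TP cells, or 0.506% and 0.323%, a ratio of 0.638. Barcodes with fewer than 2000 UMIs, more of them in Con, were left out there. The base therefore differs from that of 0.866, and the parts of thinning and of this loss were not told apart. The ratio also moved with the Krt75 minimum, to 0.484 with 1 UMI (370 Con and 85 TP cells) and to 0.301 with 50 per 10000 (7 and 1 cells). All 3 of these ratios lay below 0.644, but that interval covers only the counting error of the main rule and not their own. Fewer cells of this kind and more of the other kinds cannot be told apart from a share.

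Among the Krt75-positive cells, the shares with Foxq1 and with Soat1 were higher in the TP library, which is a comparison of 1 library with 1 library. Of these genes only Foxq1 is on the medulla list. As a share of all kept barcodes, clusters 2 and 3 together were closer, at 0.227% in Con and 0.279% in TP. After thinning to 1000 UMIs, Foxq1 kept a UMI in 33.9% (26.8 to 41.7) of Con cells and in 61.8% (49.2 to 73.3) of TP cells. Without thinning the shares were 52.4% and 78.3%, and in immune barcodes they were 0.498% and 0.645% after thinning. Soat1 gave 42.4% (34.8 to 50.3) and 64.7% (52.2 to 75.9), with 9.45% and 12.04% in immune and 1.699% and 4.17% in dermal barcodes. Tchh, a gene of the medulla list, went the other way, at 71.5% (64.0 to 78.3) in Con and 61.8% (49.2 to 73.3) in TP. In immune barcodes Tchh was at 42.3% and 11.4%. Cluster 1, in which few cells held Foxq1 or Soat1, made up 42.9% (35.3 to 50.7) of Con and 18.8% (10.4 to 30.1) of TP cells. Its Con cells were the shallowest, and the part of depth in these shares was not tested beyond the thinning.

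Over all genes with at least 50 UMIs in the cells, 117 of 5342 had a level in TP at least 2-fold above Con (2.19%) and 126 a level at least 2-fold below it (2.36%), with 1 UMI added to each count. Such genes are said here to rise or fall. Scaling with the trimmed mean of M values (TMM) gave 159 higher and 87 lower and moved the median log2 ratio from -0.07 to 0.06. Of the rises, 77 lay below all other barcodes in both libraries, and 79 were also at least 2-fold higher in those barcodes. Of the falls, 75 lay below them and 42 were also at least 2-fold lower there. Of all 5342 genes, 1781 lay below the other barcodes in both libraries. In the other barcodes 8.41% of 17869 genes were higher and 11.8% lower. The part of free RNA in the cells' values was not tested.

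**Figure D3:**
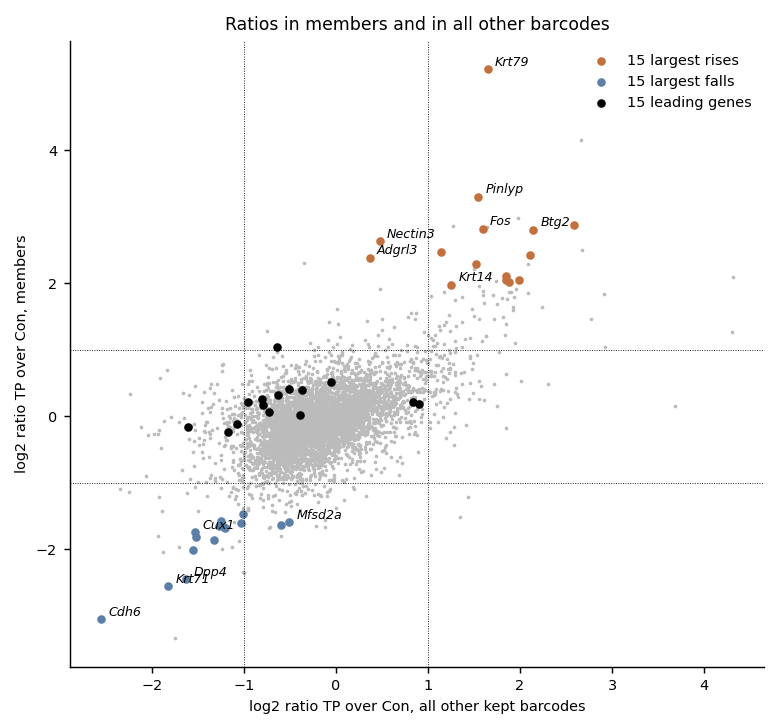
Each grey point is 1 of the 5342 genes with at least 50 UMIs in the Krt75-positive cells, with its log2 ratio of TP over Con in all other kept barcodes on the x axis and in the Krt75-positive cells on the y axis. Dotted lines mark 2-fold. Orange and blue points are the 15 largest rises and the 15 largest falls among genes with at least 100 UMIs. Black points are the 15 leading genes, which apart from Uox lie within 2-fold on the y axis.

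Most genes that mark the cells lay within 2-fold between the libraries, as did most of all genes tested. Of 65 genes at least 8-fold above all other barcodes in both libraries, 62 lay within 2-fold between TP and Con, beside 5099 of all 5342 genes tested. The median log2 ratio of the 65 was 0.18 over all the cells and -0.07 within clusters 2 and 3. It was -0.41 for the same genes in the other barcodes. Both libraries entered this choice, which by itself limits how far the genes can differ. The 2 that rose were Tm4sf4, at 40.0 CPM in Con and 125 CPM in TP, and Uox, which encodes urate oxidase, at 141 and 291 CPM, a ratio of 2.07 (1.63 to 2.63). Its log2 ratio was 1.04, and it was 0.92 without the called doublets and 0.76 with a mitochondrial limit of 5%, both under 2-fold. Within clusters 2 and 3 the Uox ratio was 1.68 (1.32 to 2.14). The 1 that fell was Wnt11, at 77.4 and 35.1 CPM, a ratio of 0.454 (0.273 to 0.735). Within cluster 1 Wnt11 stood at 226 and 193 CPM, and with each cluster given its Con weight in both libraries its log2 ratio was -0.25.

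Foxq1, Soat1, Hoxc13, Kitl and Tchh differed by less than 2-fold. Of the medulla list, Foxn1 fell and Igfbp5 rose, at log2 ratios of -1.20 and 2.30, both described further below. Foxq1 had a ratio of 1.24 (1.12 to 1.38) over all the cells and 1.01 (0.908 to 1.12) in clusters 2 and 3, and Soat1 had 1.04 (0.979 to 1.11) and 0.848 (0.795 to 0.905). Within clusters 2 and 3 the interval of Foxq1 included 1, and that of Soat1 lay below 1. Hoxc13, which regulates hair keratin genes, had a ratio of 1.90 (1.59 to 2.26), and 1.57 (1.31 to 1.87) in clusters 2 and 3. Kitl had 1.45 (1.34 to 1.58), and 1.19 (1.09 to 1.29) there. Tchh went the other way, with a ratio of 0.739 (0.716 to 0.762) over all the cells and 0.610 (0.591 to 0.629) in clusters 2 and 3. Its level in the other barcodes had a log2 ratio of -1.48, and the part of free RNA was not tested.

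**Figure D4:**
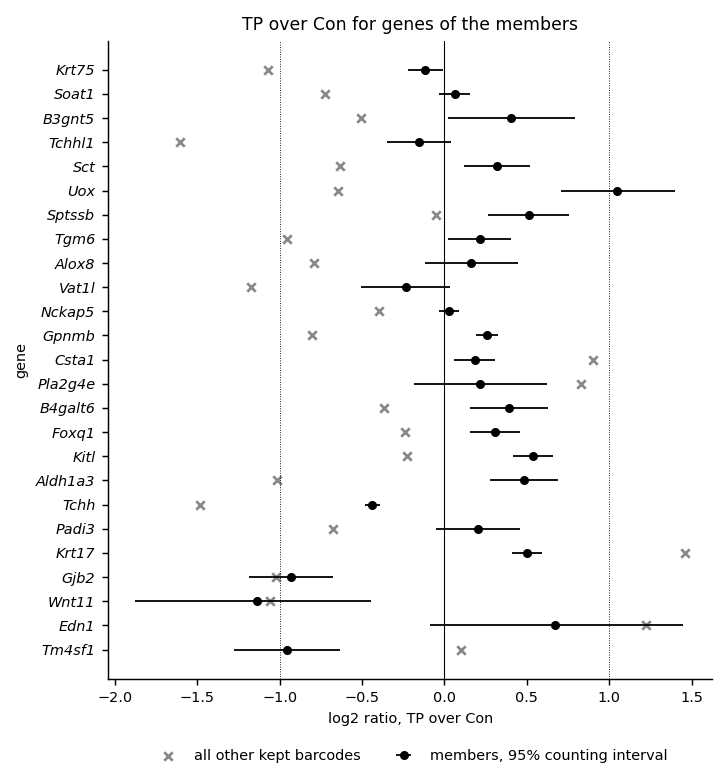
Log2 ratio of TP over Con on the x axis for the 15 leading genes and 10 further genes, as black points with 95% counting intervals for the Krt75-positive cells and as grey crosses for all other kept barcodes. Dotted lines mark 2-fold, within which most leading genes lie.

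Among genes with at least 100 UMIs the largest rise was that of Krt79, a keratin of the upper follicle, and it came from few cells. Genes with 50 to 99 UMIs were not ranked. Krt79 had 9 UMIs in the Con cells and 342 in the TP cells, a ratio of 41.4 (21.5 to 91.3). Of the latter, 321 lay in 5 TP cells of cluster 1, which held 77.0% of the TP UMIs of that cluster. These cells had no Foxq1, 4 of them had Edn1, and together they held 69 of the 72 TP UMIs of Sox9, a transcription factor of the outer root sheath, and 37 of the 39 of Lgr5, a receptor of follicle stem cells. Without them the Krt79 log2 ratio went from 5.22 to 1.48, Sox9 from 2.99 to -0.98, Pinlyp from 3.31 to -0.04, the adhesion gene Nectin3 from 2.64 to -1.16 and Adgrl3 from 2.38 to -0.43. Krt17, a companion layer keratin read at 2273 CPM in Con and 3212 CPM in TP, went from 0.50 to -0.22. The values of these genes in TP thus rested on the 5 cells.

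Epidermal genes also rose. Krt10, a keratin of differentiating epidermis, was at 781 CPM in Con and 2685 CPM in TP, a ratio of 3.44 (3.14 to 3.77). Calm4, a calmodulin-like gene, was at 191 and 1035 CPM and Sbsn (suprabasin) at 315 and 1316 CPM. All 3 lay below the other barcodes of their library, where the log2 ratio of Krt10 was 1.81 against 1.78 in the Krt75-positive cells. After thinning, Krt10 kept a UMI in 44.8% and 67.6% of the cells and in 54.7% and 74.0% of immune barcodes, and in 43.4% and 61.2% of dermal barcodes, so its share lay between the shares of both backgrounds. A TP cell of cluster 2 with 44374 UMIs, 43 of them Foxq1, held 53.3% of the Klk7, 47.7% of the Calm4 and 28.8% of the Krt10 UMIs of the TP cells. Without it the log2 ratio of Klk7 went from 2.87 to 1.88, of Calm4 from 2.43 to 1.59 and of Krt10 to 1.38. Of the epidermal and simple keratins, 6 of 10 rose and none fell, where 2.19% of all genes tested rose and 2.36% fell. Their median was 1.63, and 8 of the 10 lay below the other barcodes in both libraries. In those barcodes the list had a median of 1.18, over the 16 genes that could be tested there.

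Immediate-early genes, known to respond fast to stress and tissue dissociation, rose together. Fos was at 142 CPM in Con and 1012 CPM in TP, a ratio of 7.13 (5.83 to 8.80). It was higher in each cluster, at 268 and 948 CPM in cluster 1, 90.6 and 1016 CPM in cluster 2 and 46.8 and 1043 CPM in cluster 3. Egr1 had a ratio of 4.93 (3.91 to 6.28), Btg2 of 7.26 (4.71 to 11.7) and Atf3 a log2 ratio of 2.05. Of the list, 11 of 14 rose and none fell, against 2.19% and 2.36% of all genes tested, with a median of 1.58. In the other barcodes 18 genes of the list could be tested, with a median of 1.60. Of the 14 genes, 11 lay below those barcodes in both libraries.

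**Figure D5:**
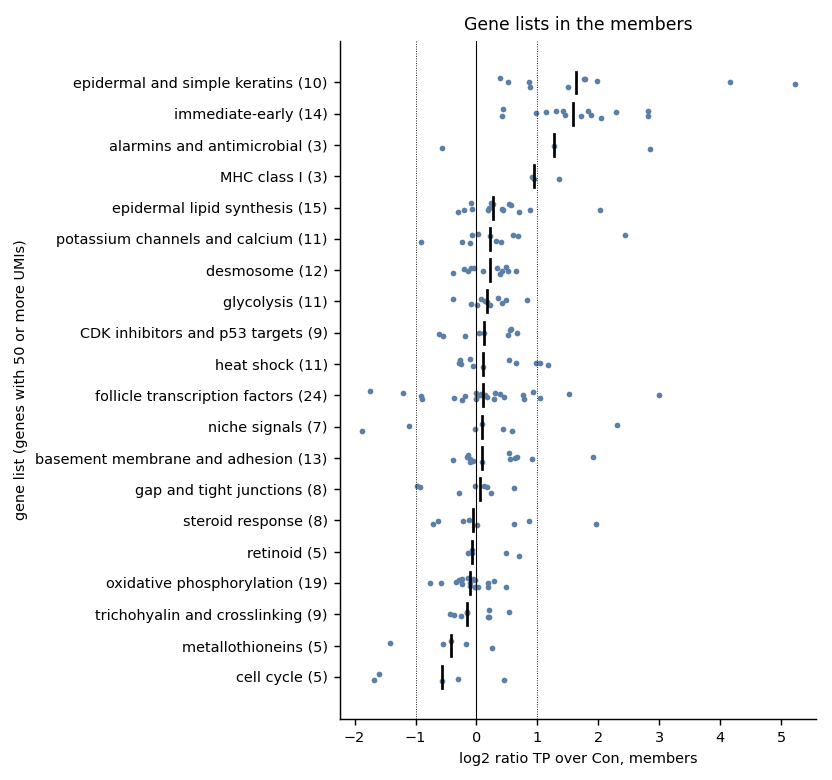
Log2 ratio of TP over Con in the Krt75-positive cells on the x axis for the genes of each list with 50 or more UMIs, with the number of such genes in brackets. Each point is 1 gene, black bars are list medians and dotted lines mark 2-fold, and the epidermal keratins and immediate-early genes stand to the right.

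The proliferation genes Mki67 and Top2a fell. Mki67 was at 188 CPM in Con and 57.6 CPM in TP, a ratio of 0.306 (0.211 to 0.435), and the topoisomerase Top2a at 178 and 57.6 CPM, a ratio of 0.324 (0.223 to 0.462). Of the cell cycle list 2 of 5 fell and none rose, beside 2.36% and 2.19% of all genes tested, with a median of -0.57. In the other barcodes the median was -0.56, over 20 genes. All 5 lay below the other barcodes in both libraries.

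The largest fall among genes with at least 100 UMIs was that of Cdh6, a cadherin, with 153 UMIs in 50 Con cells and 16 in 6 TP cells, a ratio of 0.114 (0.0635 to 0.191). In the other barcodes Cdh6 was at 1019 and 174 CPM, above its level in the Krt75-positive cells in both libraries, and it fell by more than 2-fold there too. Dpp4, a membrane peptidase, was at 152 and 26.7 CPM, and Slc39a10, a zinc importer, at 772 and 211 CPM. The transcription factor Cux1, known from the inner root sheath, was at 1107 CPM in Con and 329 CPM in TP, a ratio of 0.297 (0.256 to 0.344). Cux1 was mainly a gene of cluster 1, at 2696 and 1195 CPM, and in clusters 2 and 3 its log2 ratio was -1.13. Krt71 and Krt25, at log2 ratios of -2.56 and -2.02, are keratins that the rule limits. The others of the 15 largest falls were Krt35, Robo1, Csrp2, Alad, Mfsd2a, Notch1 and Sox5, from -1.82 to -1.47. With clusters at their Con weights Notch1 was at -0.76, Sox5 at -0.81 and Mfsd2a at -0.87, each short of 2-fold.

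Among follicle transcription factors 3 of 24 rose and 2 fell, beside 2.19% and 2.36% of all genes tested, with a median of 0.11. The rises were Sox9, in the 5 cells described, Klf4 at 1.52 and Vdr, the vitamin D receptor, at 1.05. The falls were Cux1 and Foxn1, the nude mouse gene, at -1.20. Of the niche signals 1 of 7 rose and 2 fell, to be read against the same shares, with a median of 0.09. The rise was Igfbp5 at 2.30, with 91.0% of its TP UMIs in 1 cell, and the falls were Wnt11 and Sostdc1 at -1.88, which was -0.77 without the called doublets and then no longer passed 2-fold.

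Over all the cells, 3 lists of hardening and junction genes held no call, with the backgrounds at 2.19% for rises and 2.36% for falls. These were 9 trichohyalin and crosslinking genes (median -0.16), 12 desmosomal genes (0.22) and 8 gap and tight junction genes (0.05), among which Gjb2 was at -0.92 and Gja1 at -0.97. Within the clusters some of them passed 2-fold. Of the desmosomal genes, in clusters 2 and 3, 2 of 11 rose, Dsg1a at 1.54 and Perp at 1.00, where 2.44% of all genes rose. In cluster 1, where 5 cells held 77.0% of the TP UMIs and 5.68% of all genes rose and 4.83% fell, Dsg3 rose, at 3.27, while Gja1 at -1.21 and Tchh at -3.91 fell. Tchh in cluster 1, at 693 and 38.5 CPM, lay below the other barcodes, at 1145 and 409 CPM. Over all the cells energy genes held no call either, over 19 of oxidative phosphorylation (-0.10) and 11 of glycolysis (0.18). In clusters 2 and 3, 1 of 9 glycolysis genes rose, the isomerase Tpi1 at 1.03, beside 2.44% of all genes there. Over all the cells no call was seen among 9 CDK inhibitors and p53 targets (0.12), 5 retinoid genes (-0.07), and the 1 interferon gene that could be tested, Ifitm3, at 0.93.

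The remaining lists are set beside the same shares over all genes tested, 2.19% for rises and 2.36% for falls. Of the heat shock genes 2 of 11 rose (median 0.11), Hspb1 at 1.04 and Dnajb1 at 1.17. Under some alternatives both were below 2-fold, the lowest values being 0.77 and 0.74. Of the basement membrane and adhesion genes 1 of 13 rose (0.08), Epcam at 1.92, and 0.15 without the 5 Krt79 cells. Epidermal lipid synthesis gave 1 of 15 (0.28), the fatty acid elongase Elovl4 at 2.03. Potassium channels and calcium genes gave 1 of 11 (0.23), Calm4. In the steroid response list 1 of 8 rose (-0.06), the phosphatase Dusp1 at 1.96. Of the 5 tested in clusters 2 and 3, 2 rose (0.43), where 2.44% of all genes did. MHC class I gave 1 of 3 (0.95), H2-D1 at 1.36, which was 0.86 and under 2-fold with the rule applied after thinning. In clusters 2 and 3 it gave 3 of 3 (1.68), where 2.44% of all genes rose. Over all the cells, the 3 genes lay below the other barcodes in both libraries. In those barcodes the list had a median of 1.02 over 8 genes. The alarmins gave 2 of 3 (1.27), Defb6 at 2.85, with 76.4% of its TP UMIs in 1 cell, and Sprr1b at 1.27, which was 0.97 as a mean over cells. In clusters 2 and 3, 0 of 2 tested alarmins rose (0.05). Of the stress keratins Krt16 rose, at 2.10, and Krt17 did not. In the other barcodes 16 of 21 alarmins (1.54) and 4 of 4 stress keratins (3.87) rose, where 8.41% of all genes did. Of the metallothionein list 1 of 5 fell (-0.42), the zinc exporter Slc30a1 at -1.42. Within cluster 1, 4 of 4 fell (-1.81), where 4.83% of all genes did and 5 cells held 77.0% of the TP UMIs, and 0 of 4 fell in clusters 2 and 3 (-0.04), where 1.22% of all genes did. The difference between the clusters was not tested. The tested gene among the other hair shaft keratins was Krt35, which fell, and that among the other inner root sheath keratins was Krt73, at 0.02. Krt73 was at -0.67 in clusters 2 and 3 and rose in cluster 1, at 1.23, where 5.68% of all genes did.

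The clusters were also compared with each other in what moved. In clusters 2 and 3 together 102 of 4175 genes rose (2.44%) and 51 fell (1.22%). In cluster 1, where 5 cells held most TP UMIs, 93 of 1637 rose (5.68%) and 79 fell (4.83%). Of 1517 genes tested in both, 15 rose in both, 6 fell in both and 3 moved in opposite directions.

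Markers of cell types from outside the epithelium were low in the cells. No marker of the dermal fibroblast, endothelial, mural, melanocyte, Schwann, lymphocyte or myeloid lists exceeded the other barcodes in both libraries, and 1 of 8 dermal papilla markers did, Notum, at 20.6 and 21.1 CPM against 12.3 and 7.81 CPM. The summed dermal fibroblast markers were at 137 and 156 CPM against 729 and 4139.6 CPM in the other barcodes, and the summed lymphocyte markers at 7.74 and 29.5 CPM against 44.5 and 93.9 CPM. The summed suprabasal epidermal markers were at 2594 and 8243 CPM against 7823 and 25744 CPM, higher in TP in both, and their part in the epidermal rises was not tested. The summed outer bulge and outer root sheath markers were at 552 and 1288 CPM against 2349.7 and 4474 CPM. Among the other epithelial lists some sums lay above the other barcodes and some below. The summed basal epidermal markers were at 462 and 1094 CPM against 1806 and 3923 CPM and the summed hair matrix markers at 976 and 846 CPM against 1995 and 869.9 CPM. The summed upper hair follicle markers were at 2434 and 4061 CPM against 567 and 1724 CPM, of which Krt17, also on the companion layer list, made 2273 and 3212 CPM. The summed inner root sheath markers were at 15196 and 10578 CPM against 5322 and 2119.7 CPM, of which Tchh, also on the medulla list, made 12719.8 and 9399 CPM. The summed hair shaft markers were at 1045 and 1179 CPM against 1579.7 and 625 CPM, lower in Con and higher in TP.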

How the data were processed

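Dorsal skin of 15 pooled mice per group was profiled as 1 single-cell library for Con and 1 for TP. The deposited matrices hold raw UMI counts per gene and barcode, which the authors made with Cell Ranger 8.0.1 on mm10, per the submitters' processing notes. Gene positions came from RefSeq GRCm38.p6 by symbol.

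Counts were summed over the Krt75-positive cells of each library (774854 UMIs in Con, 711362 in TP) and divided by the sum, as CPM. With no replicates no p-value was computed. Ratios have exact conditional binomial intervals and shares Clopper-Pearson intervals at 95%, for counting error only. The share that a count of 0 allows was instead taken as 3 counts over the number of cells. A gene was called at 2-fold or more given 50 or more UMIs over both libraries, after adding 1 UMI to each count. Levels were compared with all other kept barcodes as CPM, with no UMI added. Cells were clustered with leidenalg 0.10.2 (resolution 0.5) on 2000 genes and 20 components centred within the library. Doublets were scored against artificial ones. edgeR 4.0.16 was used for TMM factors only. Scripts ran in Python 3.11.15 with numpy 2.4.6 and scipy 1.17.1, and the calls were checked on simulated counts.

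Named genes were Krt75 and Krt6a, the 15 largest rises and falls with at least 100 UMIs, the 15 genes with the largest excess over other barcodes, at most 4 genes per list, cell type markers, and genes a sentence needed. The cells and lists were chosen with earlier results of these data known. Alternatives covered the rule, filters, scaling and clustering.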

Additional observations from a re-analysis of the deposited data

Results flagged for a closer look

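Outside the limits on genes and mitochondrial share, 8 Con and 8 TP barcodes met the Krt75 rule. All had more than 10% mitochondrial counts, and 5 Con and 4 TP barcodes among them held Foxq1. They entered no comparison.

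A set of 3 genes moved by 2-fold or more in opposite directions in cluster 1 and in clusters 2 and 3, out of 1517 genes tested in both. Arhgap42 had a log2 ratio of TP over Con of 1.01 in cluster 1 and -1.42 in clusters 2 and 3. Gltp, a glycolipid transfer protein, had -1.23 and 1.57, and Gm94 had -3.45 and 1.97. The Gltp value came from cluster 2, at 2.11, while cluster 3 was at -0.54. A single cell held 31.9% of the Gltp UMIs of the TP cells, and a single cell 44.4% of their Gm94 UMIs. These differences between clusters were not tested.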

How the results depend on the processing

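No paired analysis was possible because each group is 1 library. The share of Krt75-positive cells in TP over Con was 0.301 with Krt75 at 50 per 10000 (7 Con and 1 TP cells, too few for expression). It was 0.484 with 1 Krt75 UMI as the minimum. With the rule applied after thinning to 2000 UMIs, which also left out barcodes with fewer, it was 0.638. Each of these was below 1. The number of falls was 212 with 1 Krt75 UMI as the minimum, 249 as a mean over cells, 1680 with no UMI minimum, 54 with 10 UMIs added, and 213 without the 5 Krt79 cells. The number of rises was 1743 with no UMI minimum. TMM gave 159 rises and 87 falls. Among results at least 2-fold as reported, directions turned for Igfbp5 at -0.28 under the thinned rule, for the other hair shaft keratins at 0.12 with no UMI minimum, and, without the 5 Krt79 cells, for Pinlyp at -0.0367, Nectin3 at -1.16, Adgrl3 at -0.43 and Sox9 at -0.98. Smaller ratios also crossed 0, such as Krt17 at -0.22 without those cells. The causes were not tested. Of the 15 largest rises 12 kept their direction under every alternative run, and of the 15 largest falls 15 did. Resolution 0.3 gave 2 clusters. Leaving out the Krt79 cells or the Krtdap-rich cell and weighting clusters by their Con shares were chosen after seeing the data. Cells high in Krt6a were absent, so a split by Krt6a was not run. With 1 library per group, pooled mice and a deeper TP library, the intervals say nothing about spread between animals.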
